A study of Mus musculus with 10 samples.

Results

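Sorted hippocampal cells from TDP-43 conditional knockout mice that had received a TDP-43mNLS vector were compared with cells from control mice that had received a GFP vector, to ask which transcripts stay away from control although the vector is present. The members are the 7 libraries of these groups, out of 10 in the series, and all 20379 genes that passed a group-wise low-count filter, out of 55487 in the deposited table. The NC-GFP group (3 libraries) came from CamKIIcre/- mice given AAV-FLEX-GFP. The cKO-mNLS group (4 libraries) came from TDP-43flox/flox::CamKIIcre/- mice given AAV-FLEX-TDP-43mNLS-GFP. The third group, cKO-GFP (3 libraries), had the floxed genotype with AAV-FLEX-GFP and served here to place each gene. Every group carried the CamKII-driven Cre, a driver used for forebrain excitatory neurons, so the control is not Cre-free. The vectors were injected into the dentate gyrus, and GFP-positive cells were sorted a month later from brain suspensions pooled from 3 to 4 animals in each group. The labels do not say whether each library is a separate pool, so p-values measure the spread between libraries, which may be technical. Genotype and vector change together between cKO-mNLS and NC-GFP, so their shares in a difference cannot be told apart.

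The product of Tardbp, TDP-43, binds RNA mainly inside the nucleus, where it represses cryptic exons and controls the splicing and stability of many long neuronal transcripts. It leaves the nucleus and aggregates in neurons in amyotrophic lateral sclerosis and frontotemporal dementia. A nuclear localization signal (NLS) is the stretch that carries a protein into the nucleus; the labels do not describe the mNLS change further. Granule neurons of the dentate gyrus are excitatory cells that express the transcription factor Prox1 and the calcium buffer Calb1.

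The libraries held 17164162 to 29204279 estimated counts, with 10.92% to 16.53% of counts from mitochondrially encoded genes. The labelled sort was set against cell type markers. In NC-GFP the mean log2 CPM (counts scaled to a common library size) was 8.16 to 8.55 over myelin genes and 8.14 to 8.51 over homeostatic microglia genes, against 1.04 to 1.54 over excitatory neuron genes. By this mean the excitatory neuron markers were low in the control libraries, whereas glial transcripts were abundant. Not every neuronal list was low in NC-GFP. The neuronal cytoskeleton mean was 4.26 to 4.46, and granule neuron genes summed to 861 to 992 CPM although their mean was 0.85 to 1.69. The lists hold different members, so their means do not compare cell numbers. In cKO-mNLS the excitatory neuron level was 3.5 to 4.61. In such bulk samples fewer cells of a type and less RNA per cell cannot be told apart. The part of cell make-up in the results that follow was not tested.

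The targeted gene was read first. Tardbp stood at 143, 128 and 121 CPM in NC-GFP, at 120, 122 and 108 CPM in cKO-GFP, and at 206, 218, 337 and 185 CPM in cKO-mNLS. All 4 cKO-mNLS libraries lay above all NC-GFP libraries, and the knockout with GFP overlapped the control. The log2 fold change of cKO-mNLS over NC-GFP was 0.86 (SE 0.195, edgeR adjusted p = 0.0149), and it missed the threshold without NC-GFP 2 or without NC-GFP 3, with the highest adjusted p at 0.0809. The change of cKO-GFP was -0.16 (adjusted p = 0.745). Whether reads from the vector were counted under Tardbp, and which exons were deleted, is not stated in the labels, so the gene does not check the deletion. Among the 16 TDP-43 and ALS-linked RNA-binding protein genes Tardbp was the single one called by edgeR, DESeq2 called 1 more, lower, and the median log2 fold change was -0.14.

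Between cKO-mNLS and NC-GFP, 2341 genes differed at an adjusted p below 0.05 in edgeR's quasi-likelihood test, 11.5% of those tested. Of these, 1678 were higher (8.23%) and 663 were lower (3.25%), and the median log2 fold change over all tested genes was -0.02. The rises were large, with a median of 2.65 and 1073 genes changed by 2 or more on the log2 scale. The falls were smaller, with a median of -0.97 and 70 genes past the same size. For 65 of the higher genes all NC-GFP libraries were at 0 counts, and for 10 of the lower genes all cKO-mNLS libraries were. The total depended on the few control libraries: it was 1521 without NC-GFP 1, 1255 without NC-GFP 2 and 1217 without NC-GFP 3. Direct comparison of the vectors within the knockout genotype gave 3273 genes, 16.1% of those tested.

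**Figure D1:**
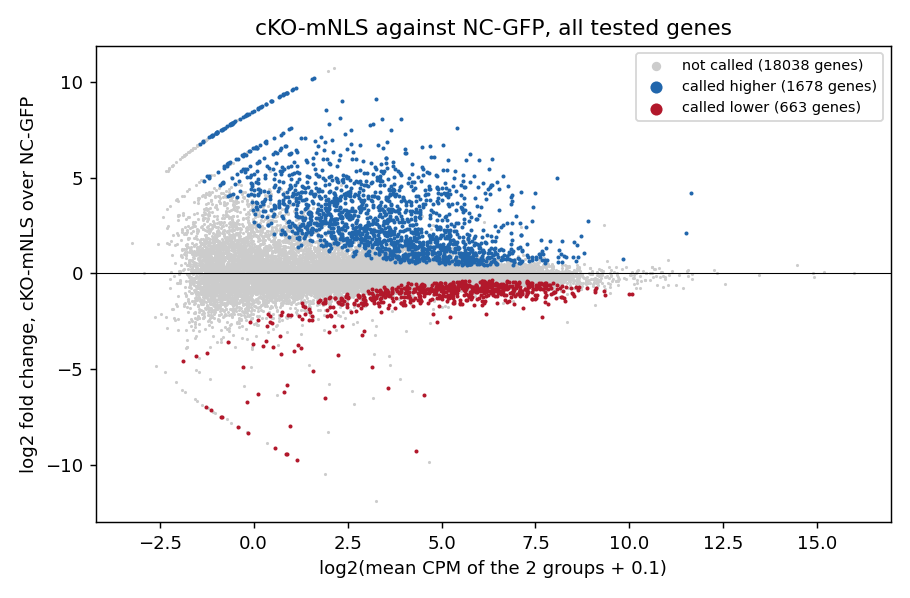
Log2 fold change of cKO-mNLS over NC-GFP (vertical) against the log2 of the mean CPM of both groups plus 0.1 (horizontal), 1 point per tested gene. Most of the 1678 genes called higher lie at 2 or more (1073 genes), whereas 70 of the 663 called lower reach that size; diagonal lines are genes with few counts in 1 group.

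Transcripts of the synaptic vesicle release machinery were higher in cKO-mNLS for most genes tested. Of 32 presynaptic genes tested, 28 rose and 0 fell, with a median log2 fold change of 3.06; at an unadjusted p below 0.05, 1 gene was lower, and DESeq2 and voom called 0 lower. Bsn, a scaffold of the active zone, read 13, 14.5 and 14 CPM in NC-GFP, 17.4, 22 and 20.9 CPM in cKO-GFP, and 129, 351, 269 and 119 CPM in cKO-mNLS. Both GFP groups were low and the groups with and without the TDP-43mNLS vector did not overlap. Its log2 fold change was 3.97 (SE 0.385, adjusted p = 0.000555). Syt1, the calcium sensor for fast release, read 1.59, 3.33 and 2.65 CPM in NC-GFP and 102, 279, 167 and 85.9 CPM in cKO-mNLS (log2 fold change 5.97, adjusted p = 0.000762). Dnm1, the dynamin of vesicle retrieval, rose by 4.62 on the log2 scale. In all 3 genes cKO-mNLS 2 was the highest library, followed by cKO-mNLS 3.

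Pseudogenes aside, the rise with the smallest p-value was in Nsg2, which encodes a neuronal endosomal protein. It read 8.94, 7.74 and 6.55 CPM in NC-GFP, 12.9, 20.8 and 14.4 CPM in cKO-GFP, and 89.8, 93.5, 63.7 and 56.8 CPM in cKO-mNLS. The 3 groups did not overlap, and the change over NC-GFP was 3.29 (SE 0.254, adjusted p = 0.000182). Nrg3, a neuregulin ligand of ErbB4, lay at or below 0.115 CPM in every NC-GFP library and between 10.7 and 31.4 CPM in cKO-mNLS. It was also higher in cKO-GFP than in NC-GFP, by 3.61 (adjusted p = 0.0328), against 8.08 in cKO-mNLS (adjusted p = 0.000347). Hpca and Hpcal4, calcium sensors of the hippocalcin family, rose by 4.98 and 5.29.

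Receptor and scaffold genes of the postsynaptic side rose as well. Of 31 genes for glutamate receptors and the postsynaptic density, 21 rose and 1 fell (0 without any single NC-GFP library), with a median of 1.67. Grin1, the obligate NMDA receptor subunit, went from 1.21, 1.95 and 0.282 CPM to 48.9, 117, 83.6 and 35.8 CPM, a change of 5.9 (adjusted p = 0.000719). The scaffold genes Shank2, Shank1 and Dlgap2 rose by 4.31, 3.34 and 6.85. Of 15 GABA receptor genes, 9 rose (5 under a stricter low-count filter, which drops low members) and 1 fell. Their median was 2.02, with a range of 1.44 to 2.31 over the settings run. The member that fell, Gabrg1, changed by -1.50 and was also lower in cKO-GFP (-1.68); it was not called in cKO-mNLS without NC-GFP 2 or NC-GFP 3.

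Ion channel genes followed the same direction. Of 22 sodium and calcium channel genes 20 rose (median 2.63), and of 28 potassium channel genes 18 rose (median 2.46). Scn2a, a sodium channel of axons, read 4.35, 3.45 and 3.62 CPM in NC-GFP, 1.58, 4.63 and 5.12 CPM in cKO-GFP, and 57.6, 185, 116 and 54.6 CPM in cKO-mNLS. The GFP groups overlapped and every cKO-mNLS library was higher, by 4.76 on the log2 scale (adjusted p = 0.000719).

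**Figure D2:**
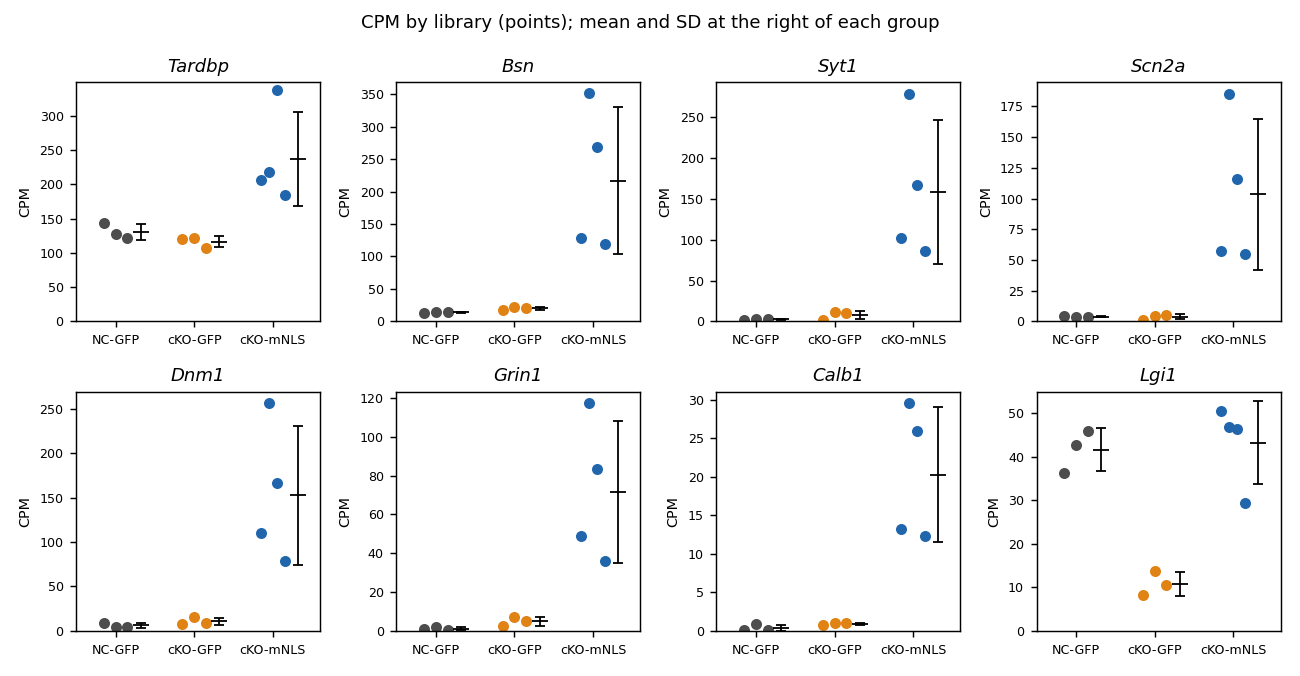
CPM of 8 genes in every library of NC-GFP, cKO-GFP and cKO-mNLS (points), with the mean and SD to the right of each group. Bsn, Syt1, Scn2a, Dnm1, Grin1 and Calb1 are low in both GFP groups and high in cKO-mNLS, Tardbp is moderately higher, and Lgi1 is low in cKO-GFP alone.

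Adhesion genes divided. Of 38 synaptic adhesion genes 20 rose and 1 fell (median 1.39, or 0.92 under a stricter low-count filter). Clstn3, a calsyntenin of synapse formation, read 0.501, 0.766 and 1.07 CPM in NC-GFP and 19.2, 43.4, 31.5 and 21.4 CPM in cKO-mNLS (5.22, adjusted p = 0.000347). Lgi1, a secreted ligand at synapses that was chosen after its values were seen, read 36.2, 42.7 and 46 CPM in NC-GFP, 8.33, 13.8 and 10.5 CPM in cKO-GFP, and 50.6, 46.8, 46.3 and 29.3 CPM in cKO-mNLS. It was lower in cKO-GFP by -1.94 (adjusted p = 0.00563), while cKO-mNLS overlapped the control (0.06, SE 0.216, adjusted p = 0.914). A p-value above the threshold does not show that the gene equalled control. Of 28 axon-glia contact genes 6 rose and 0 fell, with 2 lower at an unadjusted p below 0.05, and their median was 0.08, near that of all genes. Cntnap1, the paranodal contactin-associated protein, rose by 3.31.

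Markers of cell identity separated excitatory from inhibitory neurons. Of 20 excitatory neuron genes tested 12 rose (7 without NC-GFP 2) and 1 fell (0 without any single NC-GFP library), with a median of 2.84. Slc17a7, the vesicular glutamate transporter, stood at 0.209, 0.996 and 0 CPM in NC-GFP and at 51.2, 157, 84.8 and 46.3 CPM in cKO-mNLS (7.58, adjusted p = 0.00146). Of 18 dentate granule neuron genes 8 rose (median 2.70). Under a stricter low-count filter that drops low members 3 rose, with a median of 0.20. Calb1 rose from 0.0836, 0.843 and 0.169 CPM to 13.2, 29.6, 26 and 12.4 CPM (5.71, adjusted p = 0.000719), whereas Prox1 was abundant everywhere, with 201, 175 and 217 CPM in NC-GFP and 135, 192, 308 and 220 CPM in cKO-mNLS (0.11, adjusted p = 0.854). Of 16 inhibitory neuron genes 2 rose and 3 fell. Their median of 0.41 was -0.09 without cKO-mNLS 1 and -0.48 under the stricter filter, which left 0 called higher. Without cKO-mNLS 1, 5 fell. Dlx1, a homeobox gene of inhibitory lineages, fell by 3.10, from 9.4, 6.01 and 5.48 CPM to values between 0.661 and 0.965 CPM. Of 12 genes of immature neurons 1 rose and 4 fell (median -0.73), but 0 were called lower without NC-GFP 1, 1 without NC-GFP 2 and 2 without NC-GFP 3.

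Other neuronal lists held members that rose. Of 24 cytoskeleton genes 16 rose (median 1.91, 1.44 to 2.11 over the settings run), with Nefm, the medium neurofilament, up by 4.03. Of 19 neuropeptide and dense-core vesicle genes 12 rose (7 without NC-GFP 2). Their median was 1.76, with a range of 1.23 to 2.61 over the settings run. Scg2, a granin of secretory granules, read 0.627, 0.613 and 1.13 CPM in NC-GFP and 14.9, 24.5, 23.6 and 14.7 CPM in cKO-mNLS. Of 21 neuronal splicing and RNA stability genes 12 rose and 1 fell (median 1.46), with the splicing factors Rbfox1 and Rbfox3 up by 4.07 and 4.09. The summed CPM of that list, which its most abundant members set, was 3207 to 4048 in NC-GFP and 2114 to 3449 in cKO-mNLS. Of 11 long noncoding RNAs 7 rose (median 3.04, or 1.77 under the stricter filter). Meg3, an imprinted noncoding RNA, went from 15.3, 23.9 and 10.6 CPM to 383, 940, 531 and 241 CPM, while the summed CPM of the list overlapped between the groups. Of 18 genes with reported cryptic exons in mouse, 4 rose (7 in DESeq2) and 1 fell (0 without NC-GFP 2, NC-GFP 3 or cKO-mNLS 3), with a median of 0.25. Among them Unc13a, a vesicle priming factor, rose by 2.76, and gene-level counts do not show exons.

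Choroid plexus genes were a second group that rose. Of 12 choroid plexus and ependyma genes 10 rose (median 3.71). The list already leaned upward in the knockout without the TDP-43mNLS vector. There its median change from control was 1.81, with 1 gene called higher and 0 lower. The lowest mean log2 CPM of a cKO-GFP library over the list, 3.82, exceeded the highest control value, 3.57. The rise was therefore larger with the vector but not confined to it. Folr1, the folate receptor of choroid plexus epithelium, read 3.76, 1.49 and 2.43 CPM in NC-GFP, 4.96, 16.2 and 12.4 CPM in cKO-GFP, and 93.5, 36.9, 37.2 and 57.5 CPM in cKO-mNLS. The change was 4.46 (SE 0.535, adjusted p = 0.000808). Enpp2, the lysophospholipase D autotaxin, had the values 1421, 885 and 1016 CPM in NC-GFP and 7026, 3564, 3534 and 4912 CPM in cKO-mNLS. Library cKO-mNLS 1 was the highest for both genes, unlike the synaptic genes, where cKO-mNLS 2 was.

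**Figure D3:**
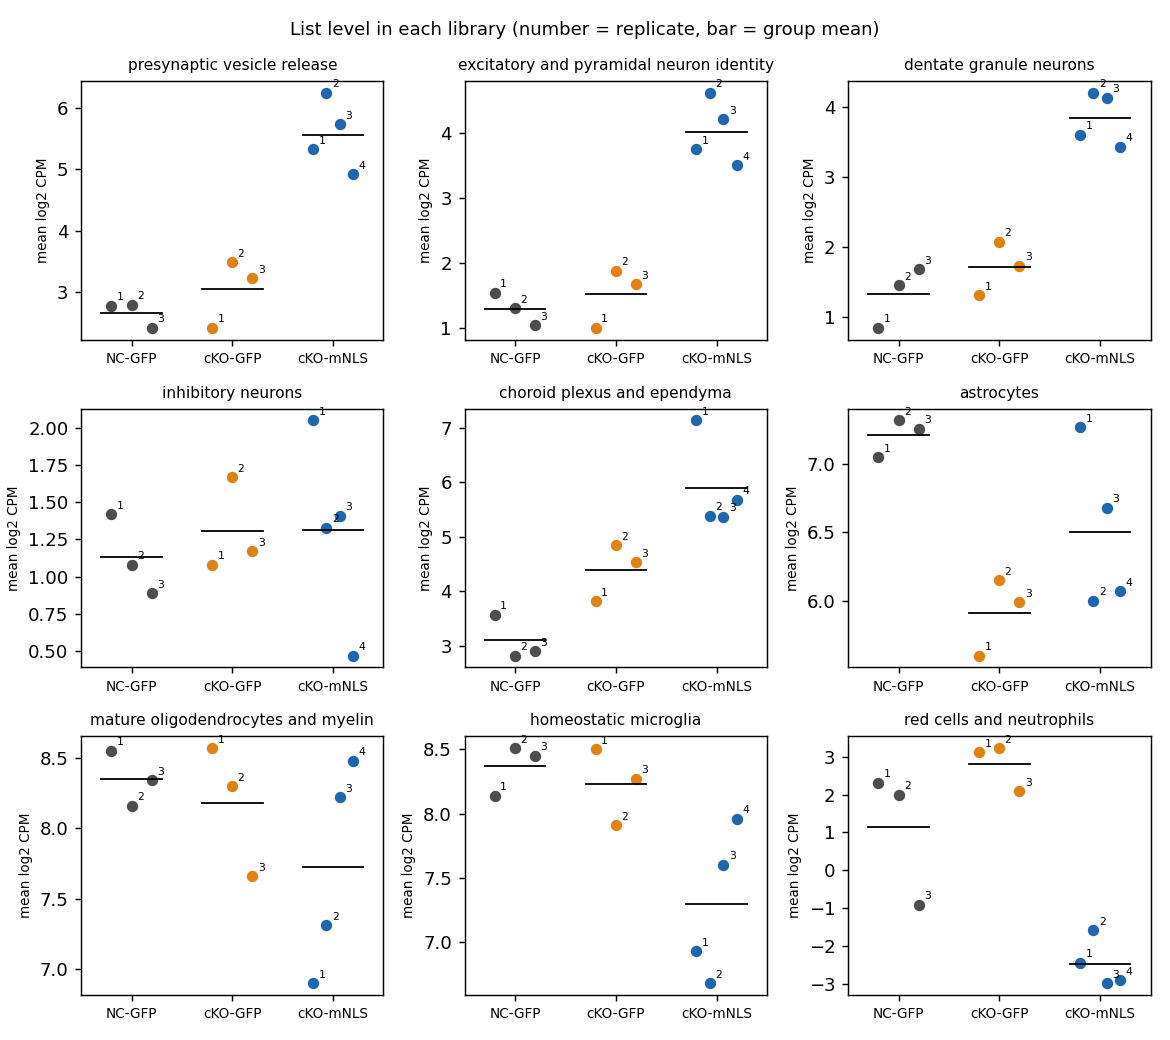
Mean log2 CPM of the tested members of 9 gene lists in each library (point, with its replicate number) and the group mean (bar). Presynaptic, excitatory and choroid plexus lists are highest in all 4 cKO-mNLS libraries, the blood cell list is lowest there, and the myelin list ranges from 6.9 to 8.48 within cKO-mNLS.

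Genes that stood away from control in both knockout groups, in the same direction, numbered 54 higher and 86 lower. Against NC-GFP, cKO-GFP had 108 genes higher (0.53% of those tested) and 225 lower (1.1%). Both contrasts share the NC-GFP libraries, so a deviation in those libraries enters both. In edgeR 0 genes were called in opposite directions, with 199 at an unadjusted p below 0.05, 31 in DESeq2 and 26 in voom. The counts rested on single libraries: 6 higher and 21 lower were called without NC-GFP 3, 13 and 31 without NC-GFP 2, and 16 and 57 without NC-GFP 1. Leaving out cKO-GFP 3 gave 47 in all.

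The genes higher in both groups included interferon-inducible genes. Interferons act through STAT and IRF factors, which bind the gamma-activated site (GAS, TTCNNNGAA) and the interferon-stimulated response element (here its core GAAANNGAA). Of 11 genes higher in both groups that the naming rule took, 5 had a promoter in the RefSeq table (GRCm38.p6, 250 bases before to 50 after the start). The 3 promoters with a match are shown because these genes stayed high with the vector, with the matches of both motifs, on either strand, in capitals.
Tgtp1 (chr11:48992197-48992496, minus strand): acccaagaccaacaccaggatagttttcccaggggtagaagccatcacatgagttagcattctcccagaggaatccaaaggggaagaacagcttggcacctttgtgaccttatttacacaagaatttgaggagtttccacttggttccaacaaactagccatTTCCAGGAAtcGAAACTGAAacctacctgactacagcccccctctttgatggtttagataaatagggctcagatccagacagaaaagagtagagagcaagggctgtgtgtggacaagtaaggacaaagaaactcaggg
Gbp3 (chr3:142559794-142560093, plus strand): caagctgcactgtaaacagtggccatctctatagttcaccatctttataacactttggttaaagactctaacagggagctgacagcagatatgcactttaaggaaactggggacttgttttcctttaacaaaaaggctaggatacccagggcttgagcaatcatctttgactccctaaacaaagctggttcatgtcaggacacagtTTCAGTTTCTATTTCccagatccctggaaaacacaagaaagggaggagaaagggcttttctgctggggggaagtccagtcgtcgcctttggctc
Tmem140 (chr6:34862896-34863195, plus strand): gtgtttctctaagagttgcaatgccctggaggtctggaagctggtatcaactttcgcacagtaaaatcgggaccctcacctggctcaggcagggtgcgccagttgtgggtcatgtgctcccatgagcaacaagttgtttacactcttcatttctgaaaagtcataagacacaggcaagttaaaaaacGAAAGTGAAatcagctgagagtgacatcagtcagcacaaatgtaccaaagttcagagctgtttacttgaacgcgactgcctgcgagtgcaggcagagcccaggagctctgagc
In Tgtp1 the GAS match began at -88 and the response element match at -77 from the start. Gbp3 had overlapping response element matches at -44 and -38 on the minus strand, and Tmem140 had 1 at -63. In a second Gbp3 promoter of the table and in the windows of Tnr and Ifi47 these letters were not found. Of 32851 promoters of 300 bases, 8.56% held GAAANNGAA and 8.3% held TTCNNNGAA. A match describes letters and is not evidence of binding.

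Gbp10, a guanylate-binding GTPase of cell-autonomous defence, read 54.6, 66.1 and 42.8 CPM in NC-GFP, 251, 172 and 198 CPM in cKO-GFP, and 288, 268, 199 and 132 CPM in cKO-mNLS. Both knockout groups lay above all controls and overlapped each other, with changes of 1.92 (adjusted p = 0.00821) and 2.02 (adjusted p = 0.00115). Gbp3 read 130, 137 and 121 CPM, then 359, 228 and 339 CPM, then 275, 295, 225 and 253 CPM, and its change in cKO-mNLS was 1.02 (adjusted p = 0.00337). Members of the Gbp and Tgtp families share sequence, so the split of reads among them is uncertain. Ifi47, an interferon-inducible GTPase, and Tgtp1 rose by 1.33 and 2.01, against 1.41 and 1.97 in cKO-GFP.

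Serping1, the inhibitor of complement C1, rose in both groups as well. It read 13.5, 17.4 and 13 CPM in NC-GFP, 82.9, 70.5 and 75 CPM in cKO-GFP, and 135, 141, 93.7 and 50.4 CPM in cKO-mNLS, a change of 2.84 (SE 0.319, adjusted p = 0.000665). Of 25 interferon response genes 8 rose and 1 fell in cKO-mNLS, with a median of 0.29. The member that fell was Oas2, an antiviral gene induced by type I interferon, with changes of -0.82 (adjusted p = 0.00775) in cKO-mNLS and -0.87 in cKO-GFP. Ifit1, Isg15 and Mx1, also induced by type I interferon, were not called, with changes of 0.29, -0.17 and -0.30. The count of 8 was 5 without NC-GFP 1 and 5 without NC-GFP 3, and the median was 0.14 without cKO-mNLS 4. Of 16 antigen presentation genes 0 were called (1 at an unadjusted p below 0.05, 1 in DESeq2 and 0 in voom), with a median of 0.22, while 5 were called higher in cKO-GFP. Tap2, a peptide transporter, had changes of 0.45 (adjusted p = 0.0938) in cKO-mNLS and 1.01 (adjusted p = 0.0133) in cKO-GFP. Tnr, the matrix protein tenascin-R, rose in both, by 2.22 and 2.66.

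Astrocyte genes made up part of the set lower in both. Of 16 astrocyte genes 5 fell in cKO-mNLS and 0 rose (2 were higher at an unadjusted p below 0.05, 1 in DESeq2 and 0 in voom), with a median of -0.65, and the median in cKO-GFP was -1.41. The count of 5 was 3 without NC-GFP 2 and 11 without cKO-mNLS 1, the highest cKO-mNLS library in astrocyte level. Gja1, connexin 43, read 406, 493 and 472 CPM in NC-GFP, 115, 130 and 117 CPM in cKO-GFP, and 217, 118, 211 and 119 CPM in cKO-mNLS. All knockout libraries were below all controls (-1.46 in cKO-mNLS, adjusted p = 0.00195). Gjb6, connexin 30, changed by -1.57 and Ednrb, the endothelin B receptor, by -1.45. Mfge8, a bridging protein for engulfment, read 174, 189 and 190 CPM, then 46.8, 61.8 and 61.5 CPM, then 94.4, 64.6, 93.7 and 93.6 CPM, a change of -1.09 against -1.70 in cKO-GFP. Gfap, the intermediate filament of reactive astrocytes, did not follow them. It read 50.6, 37.2 and 43.5 CPM in NC-GFP and 561, 187, 109 and 78.3 CPM in cKO-mNLS (2.42, adjusted p = 0.0592).

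**Figure D4:**
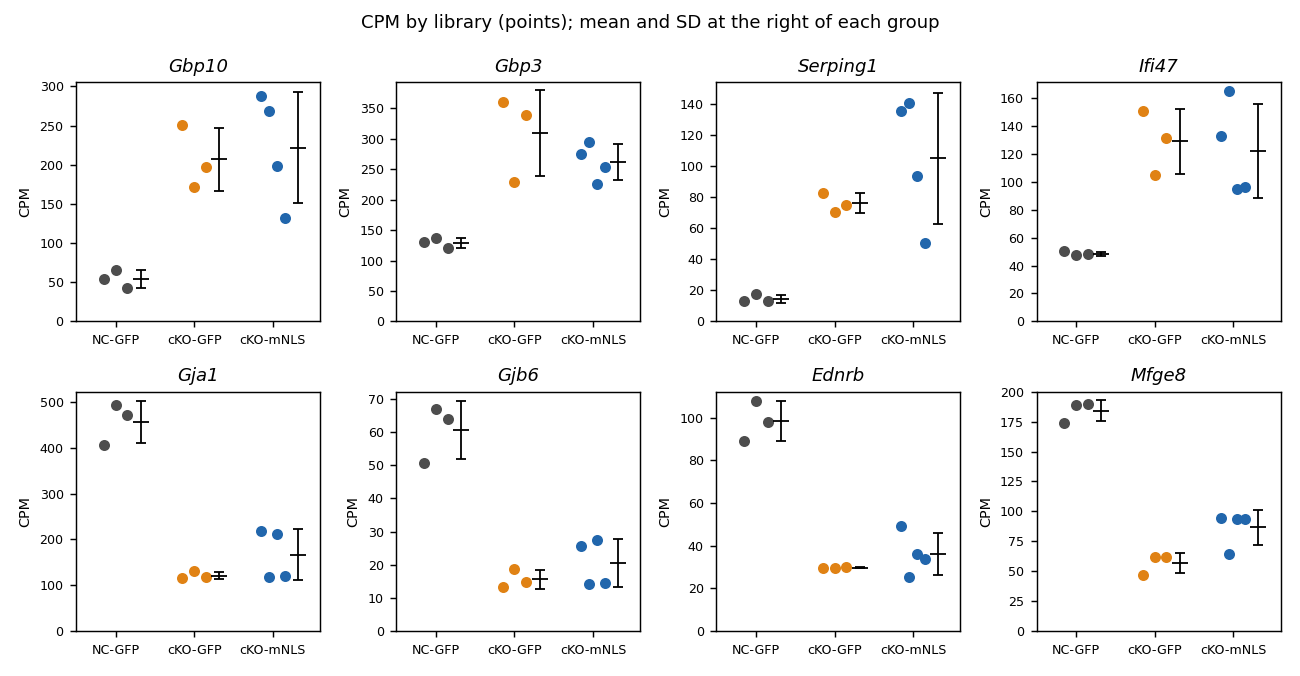
CPM in every library (points), with the mean and SD to the right of each group, for 4 genes higher and 4 genes lower than NC-GFP in both knockout groups. The 3 controls stand apart from all 7 knockout libraries for each gene.

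Pseudogenes aside, the fall with the smallest p-value was in mt-Nd3, a mitochondrially encoded subunit of complex I. It read 136, 113 and 103 CPM in NC-GFP, 19.8, 24.1 and 17.9 CPM in cKO-GFP, and 34.3, 20.6, 26.6 and 25 CPM in cKO-mNLS. Among the 13 mitochondrially encoded genes it was the single one called by edgeR, and the list median was 0.13; DESeq2 and voom each called 2 others higher, and edgeR 1 without NC-GFP 1. Mitochondrial genes have near-identical nuclear copies, so this value is uncertain. Smaller p-values belonged to pseudogenes, named here after their values were seen, whose reads may be shared with their parent genes. Gm28438, an unprocessed pseudogene on chromosome 1, read 19.9, 19.7 and 11 CPM in NC-GFP, 106, 97.9 and 98.7 CPM in cKO-GFP, and 181, 157, 198 and 138 CPM in cKO-mNLS (3.32, adjusted p = 7.36e-05). Its group means of 16.9, 101 and 168 CPM ran opposite to those of mt-Nd3, at 117, 20.6 and 26.6 CPM. Whether Gm28438 is a nuclear copy of mt-Nd3 and reads moved between them was not tested. The fall and the rise may therefore not be separate results. Rps3a3, a processed pseudogene, read 42, 51.2 and 43.2 CPM in NC-GFP and at most 0.679 CPM in cKO-mNLS (-6.34, adjusted p = 7.36e-05), and at most 2.64 CPM in cKO-GFP. Both pseudogenes and mt-Nd3 differed from control in both knockout groups and are counted among the 140 genes.

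Some genes of homeostatic microglia were lower in cKO-mNLS than in NC-GFP. Of 20 homeostatic microglia genes 10 fell and 0 rose (0 higher also at an unadjusted p below 0.05, in DESeq2 and in voom), with a median of -1.08 against -0.14 in cKO-GFP. Tmem119, a marker of resident microglia, read 172, 256 and 242 CPM in NC-GFP, 223, 118 and 139 CPM in cKO-GFP, and 54.2, 47.4, 68.2 and 82.2 CPM in cKO-mNLS (-1.83, adjusted p = 0.00124). Selplg, a selectin ligand, fell by 1.24. The count of 10 was 2 without NC-GFP 2, 2 without NC-GFP 3 and 17 without cKO-mNLS 4. Of 20 disease-associated microglia genes 1 rose and 0 fell (0 lower also at an unadjusted p below 0.05, in DESeq2 and in voom), with a median of 0.13. Their mean log2 CPM was 6.53 to 6.82 in NC-GFP and 6.26 to 7.6 in cKO-mNLS. The rise, in the glycoprotein gene Gpnmb, was 1.92 (adjusted p = 0.0256) and was not called without NC-GFP 1, NC-GFP 2 or cKO-mNLS 2, or in voom. Zfp36l2, an mRNA decay factor, read 297, 295 and 323 CPM in NC-GFP, 289, 273 and 368 CPM in cKO-GFP, and 128, 137, 123 and 123 CPM in cKO-mNLS, with the GFP groups overlapping and cKO-mNLS below both.

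Blood cell transcripts were mostly lower in cKO-mNLS than in NC-GFP. Of 13 red cell and neutrophil genes 8 fell, with a fitted median of -6.23, or -4.88 with members at 0 placed at their bound of 3 counts over the group. S100a9, a calcium-binding protein of neutrophils, read 9.19, 3.22 and 0.395 CPM in NC-GFP, 18, 2.95 and 5.71 CPM in cKO-GFP, and 0 in all 4 cKO-mNLS libraries, at least 158-fold lower than NC-GFP. Alas2, the heme synthesis enzyme of red cells, was at least 105-fold lower. The levels varied widely within NC-GFP, with a list mean log2 CPM of 2.31, 2 and -0.91, against -2.98 to -1.59 in cKO-mNLS. Summed CPM was 26.49 in NC-GFP 3 and 1.247 to 20.65 in cKO-mNLS. The list had 5 calls without NC-GFP 1, 4 without NC-GFP 2, and 5 without cKO-mNLS 1, 3 or 4. It had 1 call in voom, 3 with no low-count filter and 3 with a stricter one. S100a9 was not called in voom or with no filter. Lcn2, a siderophore-binding protein of neutrophils and reactive astrocytes, did not follow the list (1.73, adjusted p = 0.47).

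Cholesterol synthesis genes fell modestly. Of 21, 7 fell and 0 rose (0 higher also at an unadjusted p below 0.05, in DESeq2 and in voom), with a median of -0.50. Msmo1, a sterol demethylase, read 89.9, 103 and 109 CPM in NC-GFP, 74.6, 48.7 and 44.2 CPM in cKO-GFP, and 37.1, 29.8, 56.9 and 53 CPM in cKO-mNLS (-1.19, adjusted p = 0.00751). The count was 4 without NC-GFP 1 and 3 without either other control library, 4 without cKO-mNLS 1 and 3 without cKO-mNLS 2. Of 18 cell division genes 3 fell, and 0 to 1 did so without any of NC-GFP 1 to 3, cKO-GFP 1 or 3, or cKO-mNLS 3 or 4. Of 18 T cell genes 4 fell, and 0 to 2 did so without any single NC-GFP or cKO-GFP library or cKO-mNLS 2.

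Myelin genes, the process in the study's title, gave no call. Of 23 mature oligodendrocyte genes 0 were called by edgeR, with 1 lower at an unadjusted p below 0.05, 1 in DESeq2 and 1 in voom, and the median was -0.48. Without cKO-mNLS 4, the library with the highest myelin level in its group, 3 were called lower. Fa2h, an enzyme that makes myelin lipids, read 206, 154 and 194 CPM in NC-GFP, 179, 172 and 92.6 CPM in cKO-GFP, and 36, 51.7, 118 and 140 CPM in cKO-mNLS. All cKO-mNLS libraries lay below the controls, but the change of -1.10 (SE 0.41, adjusted p = 0.117) did not pass the threshold. Of 43 cytosolic ribosomal protein genes 0 were called (3 lower at an unadjusted p below 0.05, 0 in DESeq2 and 0 in voom), with a median of -0.26. Of 18 endothelial and mural genes 0 were called, with 1 higher and 1 lower at an unadjusted p below 0.05, 1 higher in DESeq2 and 0 in voom.

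**Figure D5:**
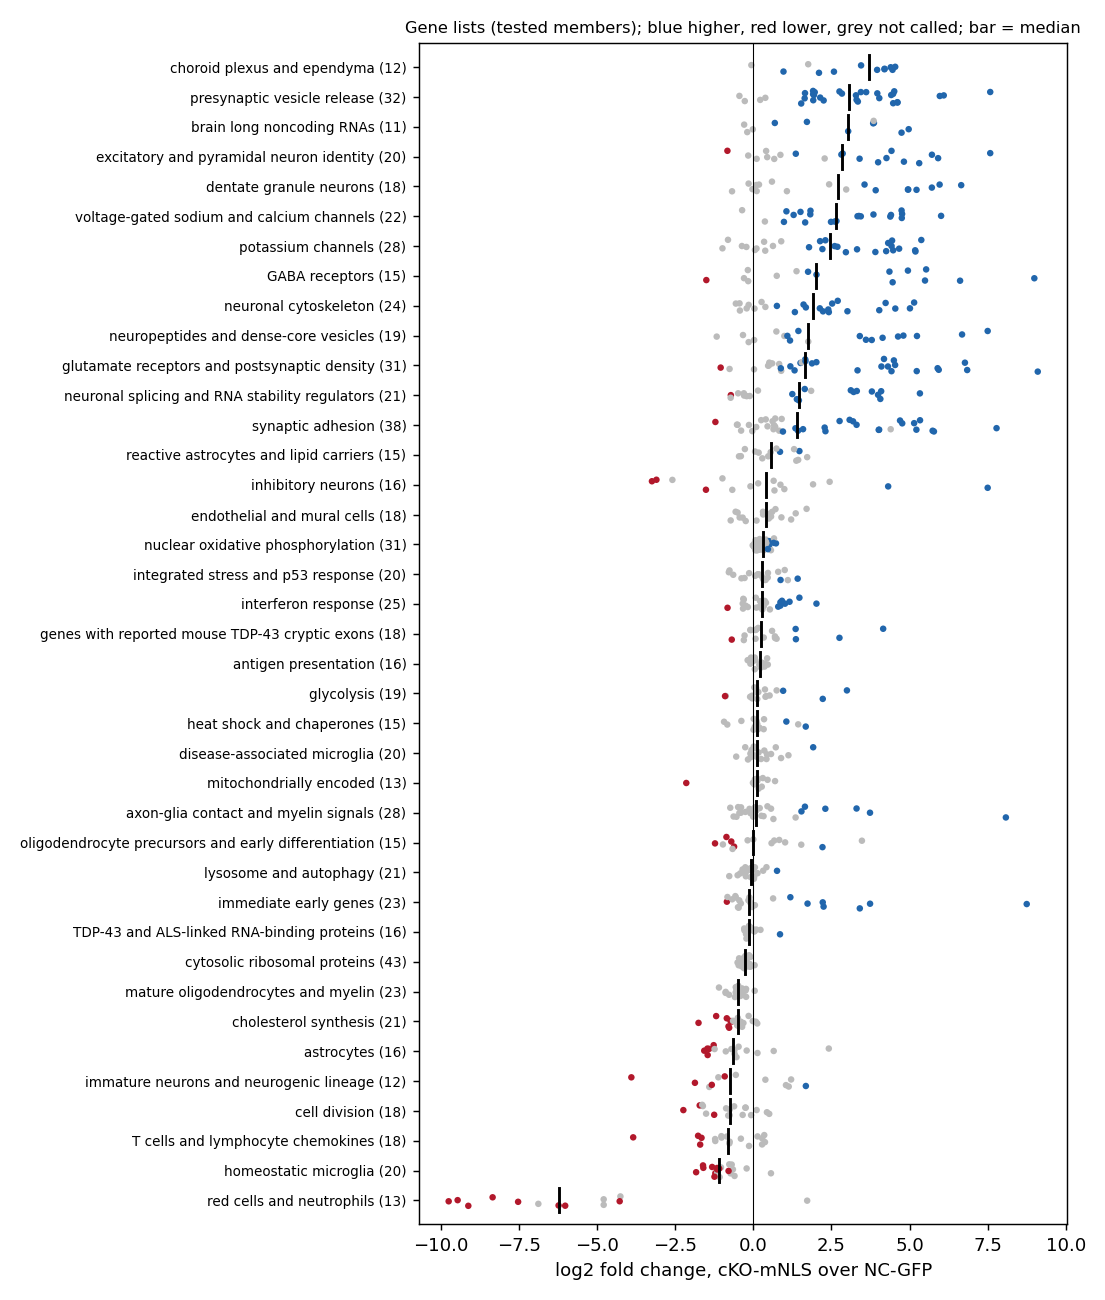
Log2 fold change of cKO-mNLS over NC-GFP for every tested member of 39 gene lists (points; blue called higher, red called lower, grey not called), ordered by the list median (bar). Choroid plexus and synaptic lists lie at the top, with medians up to 3.71, and the blood cell list lies lowest at -6.23.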

How the data were processed

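The deposited table gives, per the file headers, the authors' estimated counts and TPM per gene for 10 libraries of total RNA (SMART-Seq Stranded Kit, 1 ng input). The submitters' processing notes name DRAGEN and GRCm38 (mm10), the build of the RefSeq promoters; counting settings are not given in the sources used. The authors' estimated counts (5.84% of values not whole) were rounded. The deposited TPM values were not tested. Genes passing edgeR's filterByExpr by group were fitted with TMM factors and robust quasi-likelihood F tests (edgeR 4.0.16) in 1 model of all 3 groups (7 residual degrees of freedom), with Benjamini-Hochberg adjustment over 20379 genes. The standard error is the log2 fold change over the square root of F. DESeq2, limma voom, other filters and scalings, a replicate block and leaving out each library were alternatives. Named genes, pseudogenes and predicted genes left out, are Tardbp, the smallest p-values among genes changed by 1 or more on the log2 scale, up to 3 members per list, genes called alike in both knockout groups, and the largest CPM differences; other list members given beside them were chosen after their values were seen. The members and lists were chosen with earlier results of these data known. Some genes the rule names are not reported here. Libraries within a group differed beyond sampling noise (chi-square per degree of freedom 24.8 to 131). The procedure was tested on simulated data.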

Additional observations from a re-analysis of the deposited data

Results flagged for a closer look

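Among 139 named genes and 39 list levels, 8 genes had 1 cKO-mNLS library far from the other 3 by Dixon's test at the 95% level; chance flags about 1 in 20 groups. Library cKO-mNLS 2 was high for Slitrk4 (18.8 CPM), Cck (50.8 CPM) and Pcsk2 (72.8 CPM), low for Mfge8 (64.6 CPM), and had Slc4a1 at 0.0468 CPM where the other 3 were at 0. Library cKO-mNLS 1 was high for Top2a (15.6 CPM), Hspb8 (42.1 CPM) and Trpm3 (1190 CPM).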

How the results depend on the processing

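DESeq2 called 3567 genes, 1107 of them lower, and 487 away from control in both knockout groups. Voom with quality weights gave 330 such genes. Leaving out 1 library at a time gave 1217 to 2603 genes in all, 964 to 1858 higher, 242 to 745 lower, and 27 to 169 away in both. Same-numbered NC-GFP and cKO-mNLS libraries deviated together weakly (r 0.034 to 0.059), and differently numbered ones had r of -0.066 to 0.025. Whether the numbers pair the libraries cannot be told from these values. A replicate block gave 1953 genes and 72 away in both. DESeq2 size factors, no filter, a stricter filter, the 7 libraries alone and removal of mitochondrial genes gave 2336, 2236, 1916, 2217 and 2342 genes. No named gene changed sign in an alternative where it was called in the main or the alternative fit. Sign changes of genes called in neither were not counted. Of 135 called named genes, 110 kept their call in every leave-one-out fit. The cause of these shifts was not tested.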
